A study of Mus musculus with 6 samples.

Results

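The genes that set the pace of G1, the gap phase before DNA synthesis, were followed in B16F10 mouse melanoma cells with and without OSGEP. The set held 10 genes chosen by name, namely the D-type cyclins Ccnd1, Ccnd2 and Ccnd3, the E-type cyclins Ccne1 and Ccne2, the KIP inhibitor Cdkn1b, the INK4 inhibitors Cdkn2a, Cdkn2b and Cdkn2c, and the retinoblastoma gene Rb1. All 10 were among the 55487 genes listed in the count table. Of these, 8 had enough counts to be tested among 12669 genes, and Cdkn2a and Cdkn2b had 0 counts in every library.

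B16F10 cells were infected with a lentivirus carrying a scrambled control shRNA (shCtr, n = 3) or the second of the study's hairpins against OSGEP (shOSGEP, n = 3), and polyA RNA was sequenced. Both groups carried a hairpin vector with puromycin selection in the same B16F10 line, for which no other engineered change was stated. The 3 replicates of each group came from independent infections, and a single hairpin stood for the knockdown. OSGEP is the catalytic subunit of KEOPS, which places the t6A modification on the tRNAs that read codons starting with A (ANN codons).

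In G1, D cyclins bind CDK4 and CDK6, and E cyclins bind CDK2. The kinases phosphorylate the retinoblastoma protein, which then releases E2F factors and lets the genes of DNA synthesis be transcribed. INK4 proteins block CDK4 and CDK6, whereas the KIP protein p27, encoded by Cdkn1b, blocks CDK2 complexes. Cdkn2a gives rise to p16Ink4a and p19Arf from alternative first exons, and loss or silencing of this locus is common in melanoma and in cultured lines.

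The 6 libraries held between 18915587 and 29487384 counts. Osgep, the targeted gene, had 20.6, 58.6 and 21.8 CPM (counts scaled to the size of each library after TMM) in shCtr and 4.28, 0.542 and 5.52 CPM in shOSGEP, with no overlap (Log2FC -3.29, SE 0.876, edgeR adjusted p = 0.9997, exact permutation p = 0.1). DESeq2 called Osgep at an adjusted p = 0.0386. All 7 melanocyte markers examined (Mitf, Sox10, Pmel, Tyr, Tyrp1, Dct, Mlana) had counts in every library, and their summed level was 17710, 29600 and 17040 CPM in shCtr and 18080, 3551 and 15390 CPM in shOSGEP. Of 12 markers of other cell types, 6 were at 0 in every library, Ptprc, Cd3e, Itgam, Cdh5, Epcam and Dcn, and the sum of the 12 was between 0.688 and 4.42 CPM. TMM gave shCtr replicate 2 a factor of 0.690 while the rest lay between 1.04 and 1.14, and transcripts of low GC content were low in it. Beside the melanocyte and GC values, no test of their part in the results below was made unless one is given.

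The sequences that bear on what follows are the starts of Cdkn2a, because the locus gave no counts, and coding stretches of 5 genes, because t6A is read at ANN codons. The RefSeq promoter table (GRCm38.p6) held windows of 300 bases, from 250 before to 50 after a transcription start, for 6 of the 10 genes and none for Ccnd1, Ccnd2, Ccne2 or Rb1. Cdkn2a had a pair of windows on the minus strand, at chr4:89294570-89294869 for the upstream start (the p19Arf transcript) and chr4:89282143-89282442 for the downstream start (the p16Ink4a transcript). They are printed 5′ to 3′ with CG pairs in capitals.
Cdkn2a upstream start: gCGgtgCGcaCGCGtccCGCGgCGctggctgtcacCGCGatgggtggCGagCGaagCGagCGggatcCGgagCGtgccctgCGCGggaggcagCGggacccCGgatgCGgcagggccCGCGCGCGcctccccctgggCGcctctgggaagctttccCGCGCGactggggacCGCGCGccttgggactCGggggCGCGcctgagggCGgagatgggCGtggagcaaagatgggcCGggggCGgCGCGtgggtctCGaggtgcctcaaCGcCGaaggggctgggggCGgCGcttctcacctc
Cdkn2a downstream start: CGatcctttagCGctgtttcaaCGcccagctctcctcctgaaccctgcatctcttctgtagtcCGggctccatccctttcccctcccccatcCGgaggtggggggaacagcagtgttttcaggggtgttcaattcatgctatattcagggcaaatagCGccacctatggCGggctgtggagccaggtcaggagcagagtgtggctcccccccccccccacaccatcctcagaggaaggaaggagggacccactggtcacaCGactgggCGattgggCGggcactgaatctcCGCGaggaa
The upstream window held 45 CG pairs at a GC content of 77.0%, and the downstream one held 12 at 60.3%. The median of 32851 windows in the table was 7 CG pairs and 52.7% GC. The window of Cdkn2b, at chr4:89310983-89311282, held 18 pairs at 57.7%.

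Each coding sequence was also scanned in stretches of 30 codons, and the stretch with the most ANN codons is given for the 3 genes that stood at the extremes of ANN content, Rb1, Ccne2 and Cdkn2b, and for the D cyclins Ccnd1 and Ccnd2. ANN codons are in capitals, and positions count from the start codon.
Rb1, codons 115 to 144: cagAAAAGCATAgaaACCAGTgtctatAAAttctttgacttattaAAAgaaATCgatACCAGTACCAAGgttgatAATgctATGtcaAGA
Ccne2, codons 27 to 56: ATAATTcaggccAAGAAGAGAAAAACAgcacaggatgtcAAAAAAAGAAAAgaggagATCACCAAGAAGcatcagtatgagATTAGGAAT
Ccnd1, codons 103 to 132: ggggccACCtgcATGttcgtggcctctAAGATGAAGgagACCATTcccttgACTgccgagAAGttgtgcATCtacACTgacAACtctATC
Ccnd2, codons 102 to 131: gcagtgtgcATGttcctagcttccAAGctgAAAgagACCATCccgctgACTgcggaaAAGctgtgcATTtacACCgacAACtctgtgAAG
Cdkn2b, codons 21 to 50: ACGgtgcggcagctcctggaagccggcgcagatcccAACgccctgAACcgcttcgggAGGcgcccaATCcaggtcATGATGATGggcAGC
In these stretches ANN codons were 15 of 30 in Rb1, 18 in Ccne2, 13 in Ccnd1, 11 in Ccnd2 and 9 in Cdkn2b. Over whole coding sequences, ANN codons made up 32.6% of Rb1 and 32.2% of Ccne2, above the upper quartile of 29.8% over 11534 tested genes. Ccne1 (28.4%), Cdkn2c (28.0%), Ccnd1 (26.1%), Cdkn1b (25.4%) and Ccnd2 (23.9%) lay between the quartiles, whose lower bound was 23.6% and median 26.9%. Ccnd3 (20.5%), Cdkn2a by its p19Arf frame (17.2%) and Cdkn2b (16.2%) lay below the lower quartile.

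Cdkn2a and Cdkn2b were not detected in any library. Not 1 of 137499485 counts fell on either gene, so neither p16Ink4a, p19Arf nor p15Ink4b transcripts were seen in shCtr or shOSGEP, and no fold change was computed. A count of 0 allows up to 3 counts over the 6 libraries together, or 0.022 CPM, which covers counting error only. Within 1 library the same limit was between 0.116 and 0.147 CPM. Cdkn2c, the INK4 gene that was expressed, stood at 9.82 CPM per kilobase of exon over all libraries, a level at least 523-fold higher than the limit for Cdkn2a and at least 620-fold higher than that for Cdkn2b on the same per-kilobase scale.

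The missing signal extended beyond the pair of inhibitors. Cdkn2a lies at chr4:89274471-89294653 and Cdkn2b at chr4:89306299-89311039 (GRCm38, both on the minus strand). The nearest expressed gene on the side of lower coordinates was Mtap, the methylthioadenosine phosphorylase of methionine salvage, at chr4:89137122-89181081, with 4905, 1894 and 4652 counts in shCtr and 4181, 3589 and 4456 counts in shOSGEP. On the other side the first gene with at least 10 counts was Gm12669, a processed pseudogene starting at position 91805547, with 314 counts in all. Mtap and Gm12669 were picked as the nearest genes with at least 10 counts, so low counts between them were fixed by that choice. All 26 listed genes between Mtap and Gm12669, a span of 2.62 Mb, had 0 counts in every library. Among them were 5 protein-coding genes, Cdkn2a, Cdkn2b, Dmrta1, Zfp352 and Elavl2. As background, 33666 of the 55487 listed genes of all types were at 0 in every library, as were 30.5% of the 21974 protein-coding genes listed. Beyond Mtap on its far side, the type I interferon genes Ifne and Ifna1 were also at 0, while the noncoding genes AL805899.1, AL805899.2 and Gm12602 had 708, 225 and 134 counts in all. Counts of polyA RNA do not tell a deleted locus from a silent one, and these cannot be told apart here.

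**Figure D1:**
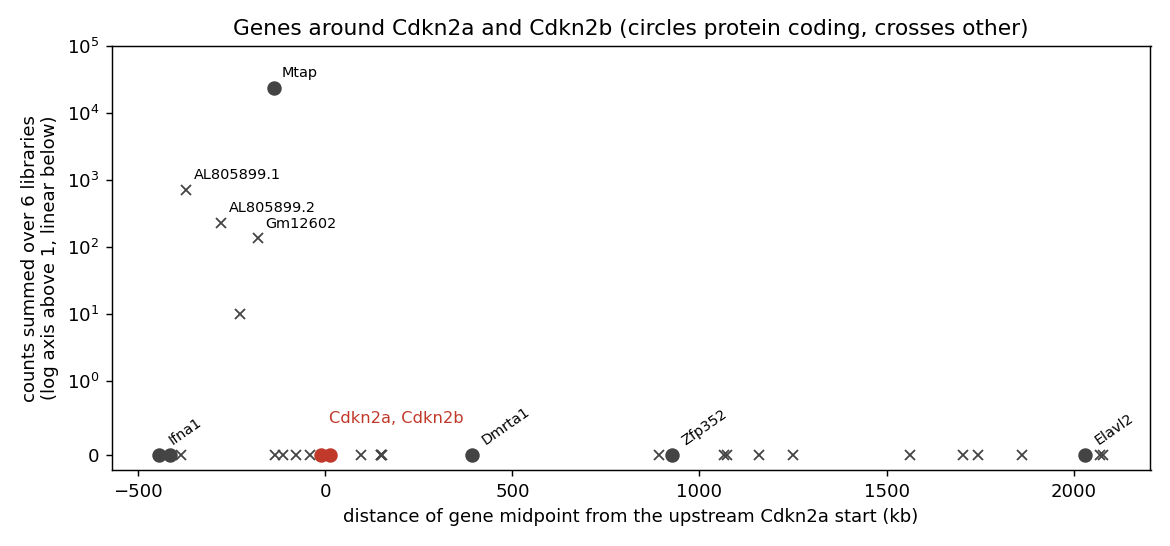
Counts summed over the 6 libraries (vertical, log axis above 1 and linear below) against the distance of each gene's midpoint from the upstream Cdkn2a start in kb (horizontal), with protein-coding genes as circles and others as crosses. Cdkn2a and Cdkn2b, in red, are at 0 together with every gene to their right, while Mtap on their left has 23677 counts.

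Among the expressed genes, the D cyclins were the most abundant. By the median over 6 libraries, Ccnd2 stood at 114 CPM per kilobase of exon, Ccnd1 at 89.1 and Ccnd3 at 58.2, against 30.6 for Ccne1, 13.3 for Cdkn1b, 9.51 for Cdkn2c, 3.44 for Ccne2 and 3.19 for Rb1 on that scale. Every pair of neighbours in this order overlapped in its range over libraries except Cdkn1b and Ccne1. The order of Ccnd1 and Ccnd3, and that of Rb1 and Ccne2, turned when the length of the longest transcript was used in place of all exons. The exons of Ccnd3 add up to 8775 bases and its longest transcript to 3858.

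No gene of the set passed the edgeR test, and 1 of 8, Ccnd2, had groups that did not overlap. At an adjusted p under 0.05, edgeR's quasi-likelihood test called 0 of 8, as it did 0% of all 12669 genes, with 0 of 8 also at an unadjusted p under 0.05. At the threshold of the study, a Log2FC beyond 0.5 with an unadjusted p under 0.05, it called 0 of 8 against 2.02% of all genes, 1.59% as higher and 0.426% as lower in shOSGEP. Groups did not overlap for 6.36% of all genes, with shOSGEP the higher group for 3.49% and the lower for 2.87%. The Log2FC was above 0 for 4 genes and below 0 for 4, with a median of 0.00035 against -0.03 over all genes tested. With n = 3 per group, an exact permutation test of 1 gene cannot give a two-sided p below 0.1. The adjusted p of every gene named below is 0.9997 in the edgeR fit, unless another is given.

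Ccnd2, which encodes a D cyclin induced by growth factors and lies at chr6:127125162-127152193, had the smallest p of the set. The 3 shCtr libraries held 829, 320 and 980 CPM of Ccnd2, and the 3 shOSGEP libraries 1398, 1884 and 1174 CPM. Every shOSGEP library exceeded every shCtr library, with the lowest value in shCtr replicate 2 and the highest in shOSGEP replicate 2. The means were 710 ± 346 and 1485 ± 363 CPM (SD, n = 3), and the Log2FC was 1.07 (SE 0.541, edgeR adjusted p = 0.9997, and exact permutation p = 0.1, the smallest possible). Same-numbered libraries differed by 0.75, 2.56 and 0.26 on the log2 scale. Without replicate 2 of both groups the Log2FC was 0.51. A fit added after the data were seen, limma-voom with sample quality weights and the replicate number as a block, put Ccnd2 at a Log2FC of 0.64 (limma adjusted p = 0.00148). It called 1403 of all genes at that level, where edgeR called 0, limma-voom without the block 3 and DESeq2 14. The replicate numbers used as its block are not established as pairs, and its p borrows variance across genes. Osgep had a limma adjusted p = 1.5e-26 in it, against an edgeR adjusted p = 0.9997. The same limits hold for the other genes quoted from that fit. Ccnd2 shares 740 exonic bases with genes on the opposite strand, 9330179D12Rik and Gm43126, which had at most 30 counts in a library.

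Ccnd1, the D cyclin most often amplified in tumours, lies at chr7:144929931-144939925 and had 371, 333 and 490 CPM in shCtr against 445, 395 and 584 CPM in shOSGEP. The groups overlapped, and the 3 same-numbered differences were nearly equal at 0.26, 0.24 and 0.25 on the log2 scale. The fitted Log2FC was 0.25 (SE 0.403, exact permutation p = 0.4). With the replicate number as a block it was 0.25 (edgeR adjusted p = 0.749), and 0.26 in the limma-voom fit with that block (limma adjusted p = 0.3). Replicate numbers are not established as pairs. All 3 same-numbered differences pointed up in shOSGEP for 3 genes of the set, Ccnd1, Ccnd2 and Rb1, and for 17.6% of all genes. Counting either direction, 4 of 8 had 3 differences of 1 sign, against 34.8% of all genes. Ccnd1 shares 1100 exonic bases with LTO1 on the opposite strand, which had between 378 and 751 counts per library.

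Ccnd3, the D cyclin prominent in lymphoid cells, lies at chr17:47505051-47599691. Its levels were 315, 1115 and 459 CPM in shCtr and 264, 562 and 580 CPM in shOSGEP. The groups overlapped, since shCtr replicates 1 and 3 lay below shOSGEP replicates 2 and 3, and the highest value was that of shCtr replicate 2. The Log2FC was -0.43 (SE 0.591, exact permutation p = 0.8), and it was 0.28 without shCtr replicate 2, with same-numbered differences of -0.25, -0.99 and 0.34. Ccnd3 shared 4.32% of its words of 31 bases with other genes, against at most 0.0753% for the other 9, so part of its reads may match elsewhere. It also shares 361 exonic bases with Bysl on the opposite strand. Bysl had between 1155 and 4518 counts per library, with the most in shCtr replicate 2.

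**Figure D2:**
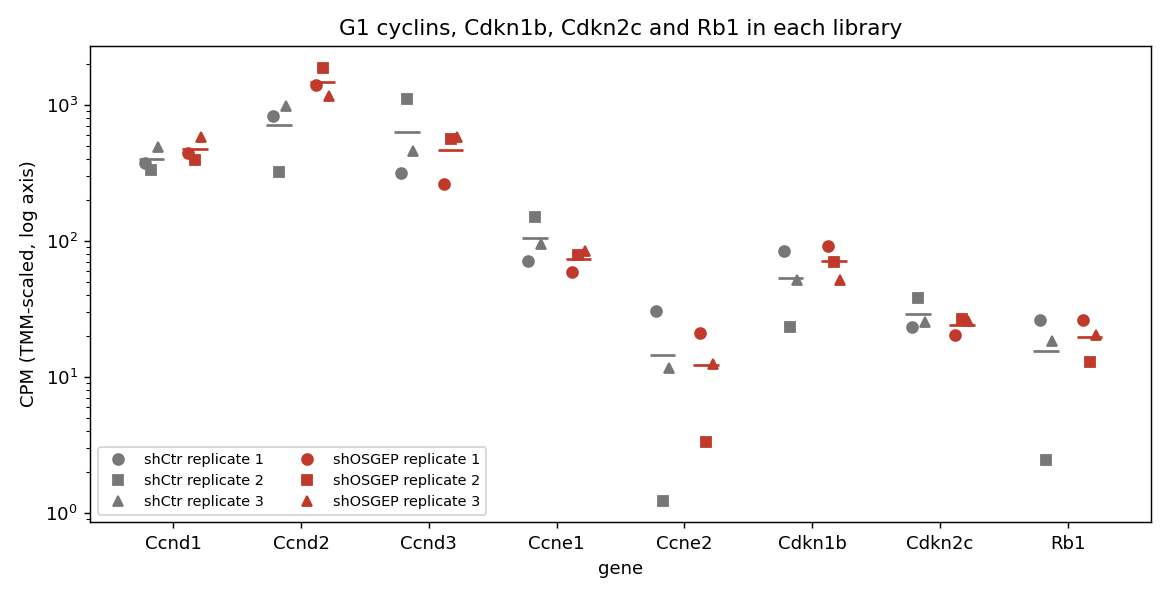
CPM of the 8 tested genes in each library on a log axis, with shCtr in grey, shOSGEP in red, 1 symbol per replicate and group means as bars. Ccnd2 is the gene whose shOSGEP points, from 1174 to 1884 CPM, all lie above its shCtr points, and shCtr replicate 2 (grey squares) is at an end of the range for every gene.

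The balance among the D cyclins was compared as the share of each in their summed CPM per kilobase of exon. Ccnd1 took 38.9%, 30.5% and 39.9% in shCtr and 34.6%, 24.1% and 39.4% in shOSGEP. Its mean share was 36.5 ± 5.16% against 32.7 ± 7.82% (SD, n = 3), a difference of -3.77 percentage points (exact permutation p = 0.6). The share was lower in shOSGEP in all 3 same-numbered comparisons, and the difference was -2.43 points without replicate 2 of both groups but 0.53 without shOSGEP replicate 2 alone. Ccnd2 took 43.5%, 14.7% and 39.97% in shCtr and 54.4%, 57.5% and 39.6% in shOSGEP, and Ccnd3 took 17.7%, 54.8% and 20.1% against 11.0%, 18.4% and 20.99%. Ccnd3 thus led in shCtr replicate 2 and Ccnd2 in the other libraries, nearly level with Ccnd1 in both replicates numbered 3. The summed level of the 3 D cyclins was 203, 232 and 261 CPM per kilobase of exon in shCtr and 273, 348 and 315 in shOSGEP. The groups did not overlap on this scale, but they did per kilobase of the longest transcript, where the sums were 312, 429 and 405 against 408, 549 and 492.

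**Figure D3:**
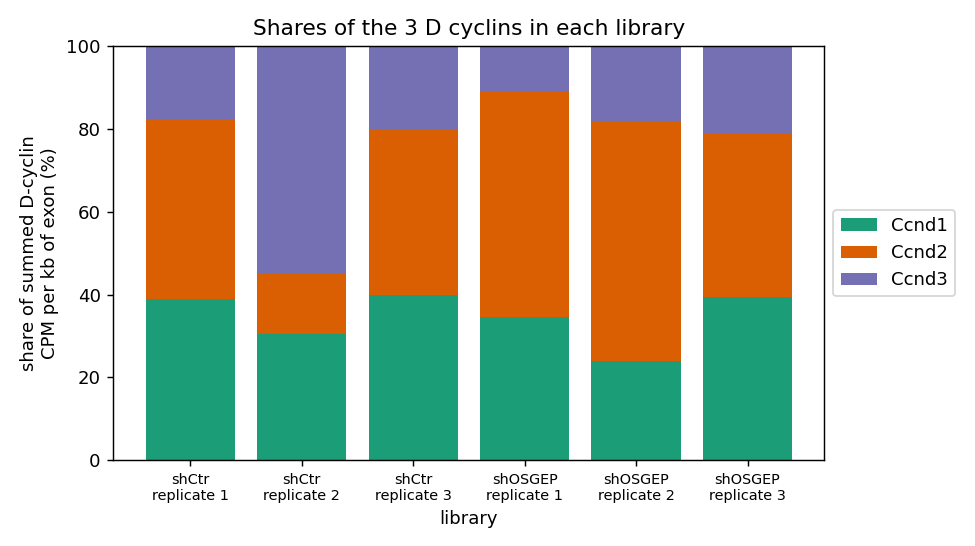
Stacked bars of the share (%) of Ccnd1, Ccnd2 and Ccnd3 in their summed CPM per kilobase of exon, 1 bar per library, from 0 to 100. The Ccnd2 share is 14.7% in shCtr replicate 2 and between 39.6% and 57.5% in the other libraries.

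The E cyclins, which bind CDK2 at the entry into S phase, moved in opposite directions in shCtr replicate 2, which was the highest library for Ccne1 and the lowest for Ccne2. Ccne1, at chr7:38097984-38107534, had 71.6, 150 and 94.9 CPM in shCtr and 58.9, 79.2 and 83.6 CPM in shOSGEP. It was lower in shOSGEP in each same-numbered comparison, by -0.28, -0.92 and -0.18 on the log2 scale, as were 17.2% of all genes, although the groups overlapped. The Log2FC of Ccne1 was -0.51 (SE 0.427, exact permutation p = 0.3), and it was -0.17 without shCtr replicate 2. Ccne2, at chr4:11191351-11204779, had 30.8, 1.23 and 11.7 CPM in shCtr and 21.03, 3.33 and 12.4 CPM in shOSGEP. Both replicates numbered 2 were low for Ccne2, and its Log2FC of -0.25 had an SE of 1.02 (exact permutation p = 0.8). The ratio of Ccne1 to Ccne2 per kilobase of exon ran from 3.05 to 160 over the shCtr libraries and from 3.67 to 31.2 over the shOSGEP libraries. Ccne2 shares 609 exonic bases with Ints8 on the opposite strand, which also had few counts in shCtr replicate 2, 84 against between 386 and 1082 in the other libraries.

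Of the inhibitors, Cdkn1b and Cdkn2c were expressed. Cdkn1b, which encodes p27 and lies at chr6:134920401-134925513, had 84.0, 23.5 and 51.6 CPM in shCtr and 92.3, 69.8 and 51.2 CPM in shOSGEP. Its shCtr replicate 2 was the lowest, and same-numbered differences were 0.13, 1.57 and -0.01. The Log2FC of Cdkn1b was 0.42 (SE 0.535, exact permutation p = 0.5), and 0.06 without shCtr replicate 2. Cdkn2c, which encodes p18Ink4c and lies at chr4:109660876-109667189 on the chromosome that carries Cdkn2a, had 23.3, 37.9 and 25.5 CPM in shCtr and 20.3, 26.5 and 25.6 CPM in shOSGEP. Its groups overlapped, and the Log2FC was -0.26 (SE 0.411, exact permutation p = 0.6), or -0.01 without shCtr replicate 2. No gene overlaps the exons of Cdkn1b or Cdkn2c on the opposite strand.

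Rb1, the brake on E2F factors, lies at chr14:73183673-73325822 and had 26.1, 2.46 and 18.2 CPM in shCtr and 26.2, 12.9 and 20.2 CPM in shOSGEP. Replicates 1 and 3 were nearly level between the groups, with differences of 0.01 and 0.15 on the log2 scale, whereas replicate 2 differed by 2.38. The Log2FC of Rb1 was 0.34 (SE 0.763, exact permutation p = 0.6) and turned to -0.17 without shCtr replicate 2. Rb1 shares 896 exonic bases with Lpar6 and Rcbtb2 on the opposite strand. Per library, Lpar6 had between 36 and 287 counts and Rcbtb2 between 535 and 1083, against between 50 and 614 for Rb1.

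**Figure D4:**
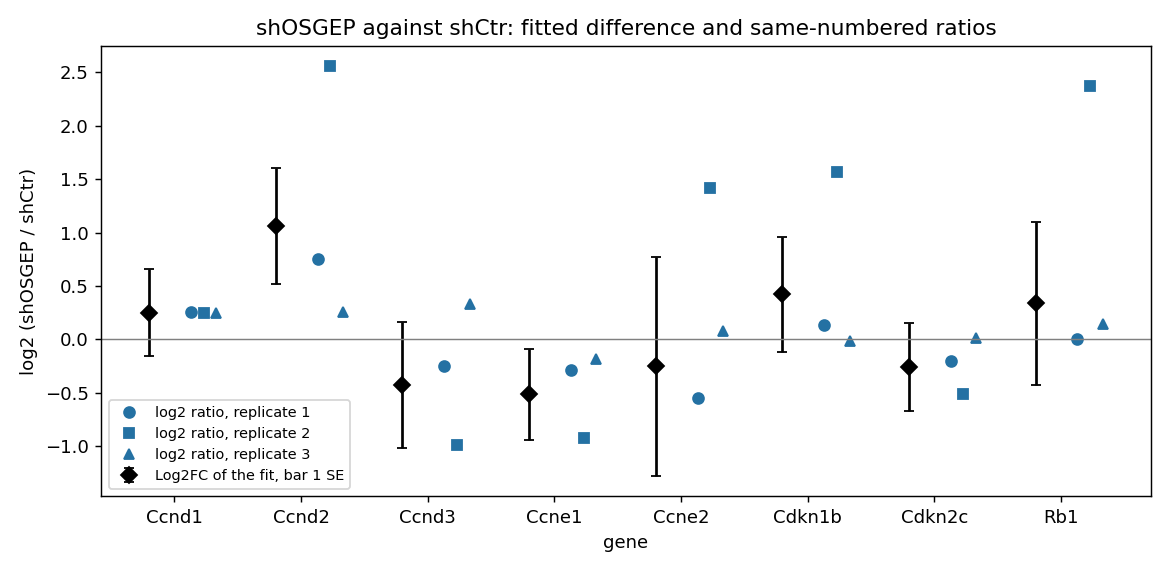
Fitted Log2FC of shOSGEP against shCtr (black diamonds, bars 1 SE) and the log2 ratio of each pair of same-numbered libraries (blue symbols) for the 8 tested genes. Replicate 2 (squares) gives the ratio farthest from 0 for every gene except Ccnd1, whose 3 ratios lie between 0.24 and 0.26.

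In all 8 tested genes, shCtr replicate 2 was the lowest (5 genes) or the highest (3 genes) of the 6 libraries, as it was in 73.2% of all tested genes. Its distance from the mean of the other shCtr libraries, on the log2 scale, was -3.92 for Ccne2, whose longest transcript has 36.3% GC, and -3.14 for Rb1 at 41.2%. It was -1.49 for both Cdkn1b (43.1% GC) and Ccnd2 (47.1%), and -0.36 for Ccnd1 (50.9%). At higher GC the library was above the others, by 0.86 for Ccne1 (52.7%), 1.55 for Ccnd3 (56.7%) and 0.64 for Cdkn2c (58.0%). Over all tested genes the median distance went from -3.15 below 40% GC (773 genes) to 1.46 above 60% (512 genes). With offsets for GC content and length fitted in each library, the Log2FC of Ccnd2 was 1.11 (edgeR adjusted p = 0.850) and 0.99 (edgeR adjusted p = 0.549) with the replicate block added, past the study's threshold in both fits. That threshold was passed by 5% of all genes with the offsets and by 6.5% with offsets and block, and by none of the other 7 genes of the set in either fit.

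**Figure D5:**
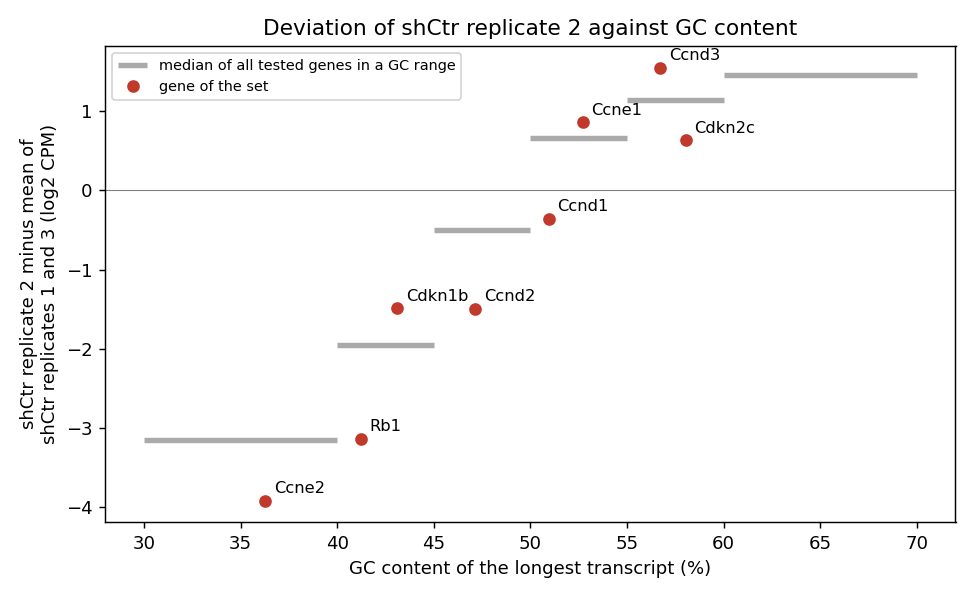
Log2 distance of shCtr replicate 2 from the mean of shCtr replicates 1 and 3 against the GC content (%) of the longest transcript, with the 8 tested genes in red and the median of all tested genes in each GC range as grey bars. The genes run from -3.92 (Ccne2) to 1.55 (Ccnd3). Each has the sign of the bar in its GC range except Ccnd1, at -0.36 where the bar is at 0.66.

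The partners and outputs of these genes were read from a list of 53 further genes of the G1/S machinery, of which 51 were tested. Below 0 stood 36 of the 51, or 70.6%, against 52.7% of all tested genes, and the median Log2FC was -0.28. The study's threshold was passed by 1, Tyms, and by 0 once the replicate number was fitted as a block. The kinase genes gave Log2FC values of -0.84 for Cdk4 (SE 0.548), -0.79 for Cdk2 (SE 0.583) and 0.45 for Cdk6 (SE 0.730). Cdk2 was at 361, 481 and 294 CPM in shCtr and 324, 70.8 and 261 CPM in shOSGEP. Exons of Cdk2 share 34 bases with those of Pmel, a melanosome gene on the opposite strand, and Pmel was likewise low in shOSGEP replicate 2, at 485 CPM against 3493 to 13300 in the other libraries.

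The remaining inhibitors did not pass the edgeR test either. Cdkn1a, the p53 target that encodes p21, had 400, 1346 and 531 CPM in shCtr and 446, 815 and 731 CPM in shOSGEP (Log2FC -0.19, SE 0.568, exact permutation p = 1.0), and stood at 0.51 without shCtr replicate 2. Cdkn2d, the fourth INK4 gene, gave -0.51 (SE 0.508, exact permutation p = 0.6). The limma-voom fit with the replicate block put Cdkn2d at -0.46 (limma adjusted p = 0.0223), among the 1403 genes that this fit called. Cdkn1c, which encodes p57, had 1, 0 and 0 counts in shCtr and 2, 4 and 3 in shOSGEP, too few to test. The pocket proteins related to Rb1 gave -0.17 for Rbl1 and -0.13 for Rbl2.

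Downstream, all 11 genes of S-phase entry had a Log2FC below 0, against 52.7% of all tested genes, with a median of -1.002. In all 3 same-numbered comparisons 9 of the 11 were lower, against 17.2% of all tested genes. The medians of the 3 comparisons were -0.47, -2.20 and -0.23. Tyms, the thymidylate synthase, had 91.4, 215 and 96.8 CPM in shCtr and 56.6, 46.7 and 77.3 CPM in shOSGEP, without overlap (Log2FC -1.16, SE 0.481, exact permutation p = 0.1). It no longer passed the study's threshold when any single library but shCtr replicate 1 was left out, with a Log2FC of -0.64 without shCtr replicate 2. Among the E2F and DP factors 8 of 10 were below 0, with a median of -0.30. E2f2 gave -1.53 (SE 0.736) and E2f1 -0.67 (SE 0.502). Groups did not overlap for 2 of the 51 tested genes of the list, 1 of them Tyms, against 6.36% of all genes. The limma-voom fit with the block called Tyms at -0.61 (limma adjusted p = 0.000546) and E2f2 at -0.61 (limma adjusted p = 0.00343). That fit called 1403 of the 12669 genes tested, where edgeR called 0. Without replicate 2 of both groups the Log2FC was -0.49 for Tyms, -0.39 for E2f2 and -0.05 for E2f1. Osgep also differed most between the replicate 2 libraries, by -6.71 on the log2 scale, against -2.26 in replicate 1 and -1.98 in replicate 3. A trait of the replicate 2 libraries, their Osgep levels included, a smaller share of cells in S phase and less RNA per cell cannot be told apart here. None of these was tested.

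In the other roles no gene passed the edgeR test, and the lead gene of each is given with its Log2FC. Cdc25a, the phosphatase that activates CDK2, was at -0.47, and the 4 activators had a median of 0.39. Fbxw7, which marks cyclin E for degradation, was at 0.88 and the 7 turnover genes had a median of 0.02. Foxo4, a Forkhead factor that drives Cdkn1b, was at -0.70 and the 3 such factors had a median of 0.09. Tbx2, a repressor of the INK4 locus, was at -1.12 (SE 0.606), with 37.0, 130 and 39.7 CPM in shCtr and 26.2, 22.8 and 46.2 CPM in shOSGEP. The 9 tested repressors of that locus had a median of -0.23. Whether any of them acts on Cdkn2a or Cdkn2b in these cells was not tested.

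The genes whose log2 CPM ran most closely with Ccnd2 over the 6 libraries were Parp14 (Pearson r = 0.998), Trim30a (r = 0.996) and Pdgfrb (r = 0.995). The points share their depth and scaling, and no p is given. These genes were picked as the closest of 12669 tested, and how many others came nearly as close was not counted. Parp14, an interferon-inducible ADP-ribosyltransferase, had 7.99, 2.36 and 8.53 CPM in shCtr and 14.0, 20.8 and 12.2 CPM in shOSGEP, the same order of libraries as Ccnd2. Trim30a, an interferon-inducible TRIM gene, had 4.84, 0.934 and 5.39 CPM against 13.5, 21.6 and 8.48 CPM. Pdgfrb had 8.1, 4.4 and 9.2 CPM in shCtr against 13.0, 15.3 and 11.4 CPM in shOSGEP.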

How the data were processed

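PolyA RNA of 3 shCtr and 3 shOSGEP infections of B16F10 was sequenced in paired reads of 100 bases from 500 ng of total RNA, with a TruSeq kit not stated to keep the strand. The authors aligned reads with STAR 2.6.1d and quantified with Salmon 1.4.0 against GRCm38, per the submitters' processing notes. The deposited values are estimated counts per gene, written as whole numbers, with no normalisation or filter. The annotation release was not given in the sources used here. Salmon divides reads shared between transcripts by likelihood, so counts of overlapping genes are uncertain.

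Groups and replicate numbers came from the labels. Genes were kept by filterByExpr (minimum count 10, minimum total 15), scaled by TMM and tested two-sided with the quasi-likelihood F-test of edgeR (4.0.16, under R 4.3.3) without a block, with Benjamini-Hochberg adjustment over 12669 genes. SE is the Log2FC divided by the square root of F. Log2 values of single libraries added 0.5 counts. Lengths, GC contents, coding sequences and positions came from GENCODE M21, which held 99.5% of identifiers. Depth was between 18915587 and 29487384 counts, and the floor of 3 counts covers counting error only, since reads carried no molecular identifiers.

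The genes, lists, naming rule and tests were chosen with earlier results of these data known. Named beyond the 10 genes were Osgep, CDK partners, other CDK inhibitors, Rb1 relatives, E2f1, the gene of smallest p in each other role, protein-coding neighbours of Cdkn2a, the 3 genes most like Ccnd2 and cell type markers. Gm12669, noncoding neighbours and genes on opposite strands fall outside the rule and were named after their values were seen. Replicate numbers were taken to pair the libraries, because same-numbered deviations correlated at 0.791, 0.541 and 0.186, all above 0.1. Yet replicate 1 of shOSGEP correlated at 0.461 with replicate 3 of shCtr, and replicate 3 of shOSGEP at 0.14 with replicate 2 of shCtr. The limit of 0.1 therefore does not establish the pairs. The edgeR fit without a block and the permutation tests did not use them. DESeq2 1.42.0, limma-voom (limma 3.58.1), other scalings and filters, the block, GC and length offsets and left-out libraries served as alternatives.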

Additional observations from a re-analysis of the deposited data

How the results depend on the processing

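At an adjusted p under 0.05 the number of the 10 genes called went from 0 to 1 (Ccnd2) with limma-voom quality weights plus the replicate block, the fit added after the data were seen. At the study's threshold it went from 0 to 1, again Ccnd2, in that fit and with GC and length offsets, with or without the replicate block. In these fits 11.4%, 5% (offsets) and 6.5% (offsets and block) of all genes passed it, against 2.02% in the edgeR fit as reported. The 53 further G1/S genes had 1 past the threshold, 3 with DESeq2 (2.93% of all genes), 3 without a count filter (2.75%), 3 with GC and length offsets, 2 with these offsets and the block, 5 with voom and the block, and 0 with upper-quartile scaling or the replicate block alone. Leaving out libraries gave between 0 and 5, with 4 without shCtr replicate 1 (3.5% of all genes) and 5 without shOSGEP replicate 3 (2.98%).

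Ccnd2 stayed above 0 in all 19 alternatives, from 0.48 to 1.51, as did Ccnd1 from 0.07 to 0.43 and Cdkn1b from 0.06 to 0.92, and Ccne1 stayed below 0, from -0.72 to -0.17. With the replicate block the Log2FC turned to 0.27 for Ccne2, 0.047 for Rbl1 and 0.051 for Rbl2. With GC and length offsets plus the block Cdkn2c was at 0.0066. Cdkn1a turned to 0.26 with voom, 0.12 with the offsets, 0.13 with offsets and block, and 0.23 with voom and block. Leaving out libraries gave ranges that crossed 0 for Ccnd3 (-0.80 to 0.28), Ccne2 (-0.89 to 0.92), Rb1 (-0.17 to 0.93), Cdk6 (-0.024 to 0.92), Cdkn1a (-0.50 to 0.51), Cdkn2d (-0.75 to 0.0057), Rbl1 (-0.65 to 0.40), Rbl2 (-0.54 to 0.17) and the Ccnd1 share (-7.12 to 0.53 points). The causes were not tested. Upper-quartile scaling moved the median of all genes from -0.03 to 0.07. Depth limits the statements on Cdkn2a, Cdkn2b and Cdkn1c, and the spread between libraries (common biological coefficient of variation 0.567) limits the rest.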
